A study of Mus musculus with 43 samples.

Results

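The genes of the cytoplasmic ribosomal proteins were followed in RNA-seq libraries of fluorescent layer 2/3 (L2/3) neurons sorted from mouse somatosensory cortex. They were chosen by name and gene type alone: protein-coding genes named Rpl or Rps and a number, plus Rpsa, leaving out Rplp0 and the Rps6 kinases. This gave 80 genes of the 56980 genes in the count table, 48 of the large and 32 of the small subunit.

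Mice were on the C57BL6JRccHsd background and carried a GFP plasmid, brought into upper-layer neurons by in utero electroporation, so each library holds the GFP+ cells that survived dissociation and sorting. WT and Cux2-/- (Cux2 KO) embryos received pCAG-GFP, as did the Cux1 KO of embryonic day 19 (E19), which was Cux1ΔC/ΔC, a germline allele that lacks the C-terminal part of the protein. The Cux1 KO of postnatal day 4 (P4) was another model: Cux1 f/Δ23 embryos, which lack exon 23 on 1 allele in all cells, received pCALNL-GFP with pCAG-iCre, so that the second allele was lost in the targeted cells and no other group carried a Cre plasmid. The study states that Cux1 KO neurons died more often during dissociation. At E19 there were 4 libraries for each of WT, Cux1 KO and Cux2 KO in each sex. At P4 there were 3 libraries per sex of WT and of Cux2 KO and 2 of Cux1 KO males, and at P7 there were 2 WT female and 3 WT male libraries. E19 was sequenced in another round than P4 and P7, so stage and sequencing round cannot be told apart for any change between E19 and P4. Counts at the level of the whole gene do not check the KO labels, because Cux2 stood at 350 ± 56.2 CPM in Cux2 KO females at E19 (SD, n = 4) against 457 ± 63 in WT females, and Cux1 at 83.2 and 168 CPM in the Cux1 KO libraries of P4.

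A cytoplasmic ribosome is built from a small subunit, which reads the mRNA, and a large subunit, which joins the amino acids. Nearly every ribosomal protein is present once in each ribosome, and cells make them in step, largely by controlling how well their mRNAs are translated: these mRNAs begin with a run of pyrimidines that places them under the mTOR pathway. Developing neurons need ribosomes in the cell body, dendrites and axon, and some members have a close relative, such as Rpl22l1 for Rpl22, that can take the same place in the ribosome. Most ribosomal protein genes have left processed pseudogenes around the genome, whose sequence is close to that of the parent mRNA.

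How the reads were counted limits every value of these genes. The authors removed reads whose mapped position was shared by many reads, without molecular identifiers, so a short or very abundant mRNA can only fill a limited number of positions. Rps3, a small-subunit protein at the mRNA entry channel, had 17278, 16983 and 15084 counts in the 3 WT male libraries of P4 and 15274 and 15540 in the 2 Cux1 KO male libraries, although these libraries held between 19499125 and 60559585 counts in all. Its normalised expression therefore ran against depth: 311, 430 and 220 CPM in WT and 767 and 360 CPM in Cux1 KO.

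The members differed in how far they followed depth. Within the groups of E19 (24 libraries), the slope of a gene's log2 count on the log2 library total had a median of 0.344 over the 76 members with a mean count of at least 200, against 0.988 over 12162 genes, where a slope of 1 is a count that follows depth. At P4 (14 libraries) the median slope was 0.851 for the members and 1.11 for all these genes, and 10 members lay under 0.25 while 51 lay within 0.25 of 1. The share of all counts on the 80 genes was lower in deeper libraries: 1.18% in the WT P4 female library of 20919432 counts and 0.688% in the WT P4 male library of 60559585 counts. The level of a member thus depends in part on depth. Values with the library total as a covariate are given below where it changed a count of calls, or the call or direction of a gene followed under it. They are also given for several medians and single genes.

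**Figure D1:**
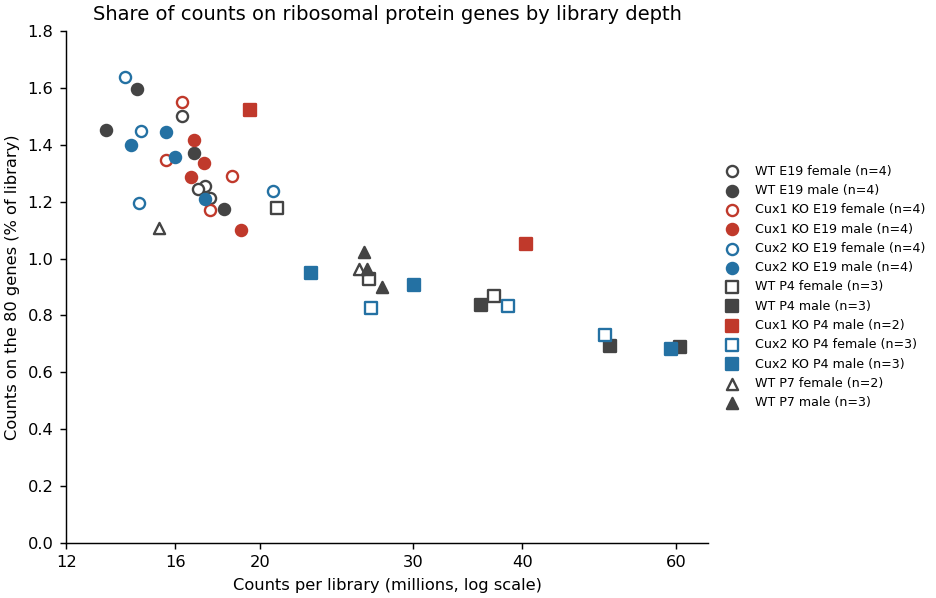
Share of the library total that falls on the 80 ribosomal protein genes (y axis, percent) against the library total (x axis, log scale); each point is 1 library, coloured by genotype, shaped by stage and filled for males. Shares ran lower in deeper libraries, and the 2 Cux1 KO libraries of P4 lay above other P4 libraries of similar depth.

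Of the 80 genes, 77 passed the filter on low counts in each comparison and 78 did so between P4 and P7. Rpl10l had no count in any library, Rpl39l had at most 48 counts and Rpl3l at most 11, and these tissue-restricted relatives of Rpl10, Rpl39 and Rpl3 were the genes left out. Among the rest, expression per kilobase of coding sequence in WT at E19 was highest for Rpl41, which encodes the smallest ribosomal protein, at 2500 CPM per kb, and Rpl22 and Rps9 stood at 950.8 and 940.8 CPM per kb. Counts were made per gene and not per coding sequence, and Rpl41 has 75 coding bases. Its rank thus rests on the divisor: undivided it stood at 187.5 CPM, against 921.2 CPM for Rpl4. Rps10 stood at 12.92 CPM per kb and Rpl24 at 32.88. Reads could be split between a member and its copies: 60 members had named processed pseudogenes (310 in all), the share of the counts on a member and its own pseudogenes together that lay on the pseudogenes had a median of 35.2% over 77 members, those without a pseudogene counting as 0%, and for Rps10 it was 96.6%. The level of a member with such copies is therefore uncertain.

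The pyrimidine start that marks these mRNAs was looked for in the RefSeq promoter table (GRCm38.p6), which holds 61 of the 80 members. Both strands of the 30 bases from 10 before to 20 from the annotated start were searched for 3 words of pyrimidines that can overlap each other. On the sense strand CTTTC was in 14 of the 61 members (22.95%) and in 4.429% of all 27025 genes of the table, a gene counting once if any of its starts held the word. The word TTTCC was in 16 members (26.23%) and in 5.014% of all genes. The word CTTCC was in 12 members (19.67%) and in 7.489% of all genes. At least 1 of the 3 words was in 26 members (42.62%) and in 14.56% of all genes on the sense strand, and in 21.31% of members and 15.46% of all genes on the other strand. The windows of 7 members are shown, the 5 largest falls from E19 to P4 and the Rps27 pair, 5′ to 3′ on the strand of the gene, with these words in capitals. They are Rps12 at chr10:23787190-23787219 (minus strand), Rpsa at chr9:120127756-120127785 (plus), Rps28 at chr17:33824543-33824572 (minus), Rpl22 at chr4:152325716-152325745 (plus), Rpl12 at chr2:32961702-32961731 (plus), Rps27 at chr3:90213629-90213658 (minus) and Rps27l at chr9:66946076-66946105 (plus). For Rpl22 and Rps27l this is 1 of 2 annotated starts, and the other held none of the words either.
Rps12: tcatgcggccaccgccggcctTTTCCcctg
Rpsa: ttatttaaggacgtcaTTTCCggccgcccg
Rps28: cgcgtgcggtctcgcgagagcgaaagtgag
Rpl22: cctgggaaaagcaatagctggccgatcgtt
Rpl12: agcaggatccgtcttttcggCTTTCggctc
Rps27: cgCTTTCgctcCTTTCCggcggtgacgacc
Rps27l: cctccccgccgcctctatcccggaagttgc
Rps27 held words of this kind and Rps27l held none, and of the 5 large falls Rps12, Rpsa and Rpl12 held 1 each and Rps28 and Rpl22 none. Annotated starts are not measured starts in these cells.

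Most ribosomal protein genes were lower at P4 than at E19 in WT L2/3 neurons. The summed expression of the 80 genes was 12500, 14000 and 16500 CPM (lowest, median and highest of 8 libraries) at E19, 6090, 7800 and 10900 CPM at P4 (6 libraries) and 8920, 9470 and 11200 CPM at P7 (5 libraries), so that the E19 libraries did not overlap with either later stage. From E19 to P4, with sex as a covariate, 68 of the 77 genes tested were lower and 2 were higher in edgeR's quasi-likelihood test at an adjusted p under 0.05, in a comparison where 32.5% of all 20091 genes tested were lower and 34.6% higher. The median log2 fold change was -0.91 over the members and 0.04 over all genes, and DESeq2 called 68 members lower and 2 higher (30.6% and 29.6% of all 24972 genes it tested). For 49 of the members every P4 library lay below every E19 library, which was so for 24.5% of all genes. Both subunits took part, with 39 of 45 large-subunit genes and 29 of 32 small-subunit genes lower and medians of -0.91 and -0.92. With the library total as a covariate, 35 members were lower and 11 higher, with a median of -0.49, in a fit where 22.1% of all genes were lower and 21.3% higher. WT totals ran from 13321095 to 18199349 counts at E19 and from 20919432 to 60559585 at P4, without overlap. This fit therefore cannot separate depth from stage. It also assumes 1 slope per gene for both stages, while the median slopes of members were 0.344 and 0.851. Both points limit every value with this covariate between E19 and P4.

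The libraries also differed in which cell types their markers point to, which stands beside every stage value. The 8 upper-layer excitatory neuron markers summed to 2520, 3190 and 3870 CPM (lowest, median and highest) at E19, 390, 456 and 588 CPM at P4 and 306, 325 and 438 CPM at P7, and 7 of the 8 were lower at P4. Neurod2, a factor of excitatory neurons, had medians of 678, 21.4 and 6.22 CPM at the 3 stages, and the vesicular glutamate transporter Slc17a7 had 11.3, 0 and 1.39 CPM. Cux1 had 420, 118 and 95.9 CPM, and Rorb, a receptor-type transcription factor, went the other way, with 29.8, 171 and 140 CPM. The P4 and P7 libraries thus held little of several transcripts that define excitatory neurons, Slc17a7, Neurod2 and Neurod6 (576, 39.2 and 4.87 CPM), but not of all markers on the list. The list of astrocytes and radial glia had medians of 2380, 5380 and 10200 CPM, among them the glutamate transporter Slc1a3 (486, 1900 and 3030 CPM), with 8 of 10 genes higher at P4. The oligodendrocyte lineage list had medians of 608, 2200 and 5250 CPM (7 of 8 higher at P4) and 8 of 8 endothelial and 8 of 12 cell cycle genes were higher at P4. The immediate early and dissociation response genes summed to means of 397 and 346 CPM in females and males at E19 and 1120 CPM in both at P4 (5 of 10 higher, 3 lower), and all 13 mitochondrially encoded genes were lower at P4 (median log2 fold change -1.30). The summed counts of these 13 genes did not follow depth, with slopes of 0.0361 at E19 and -0.34 at P4, which limits every value given for them. The part of these shifts in the ribosomal protein values was not tested. In bulk samples, fewer cells of a type and less RNA per cell cannot be told apart.

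Within the small subunit the largest fall was that of Rps12, a protein of the head of the subunit. It stood at 51.1, 59.4 and 85.9 CPM at E19 (lowest, median and highest) and at 1.98, 3.32 and 4.84 CPM at P4, with a log2 fold change of -4.31 (SE 0.232, adjusted p = 8.03e-10), and remained at 3.5, 4.12 and 8.43 CPM at P7. No P4 or P7 library came near the E19 range. Rps12 has 24 named pseudogenes that held 81.7% of the counts on gene and pseudogenes together. Rps28, a short protein at the mRNA exit, ran at 68.6, 81.6 and 117 CPM at E19 and 12.1, 13.4 and 31.7 CPM at P4 (log2 fold change -2.45, SE 0.248, adjusted p = 5.57e-07, or -1.62 and 0.00322 with the depth covariate). Rpsa, which is also known as the laminin receptor precursor, fell from 306, 346 and 401 CPM to 56.5, 72.2 and 80.8 CPM (log2 fold change -2.25, SE 0.105, adjusted p = 2.19e-10) and stayed at 66.2, 75.6 and 79.7 CPM at P7. For each of these 3 genes the 2 stages were separate, and the call held under each of the 21 alternatives, the depth covariate included. Rps6, the target of the S6 kinases, fell by less, with a log2 fold change of -0.60 (SE 0.115, adjusted p = 0.000291), and its adjusted p rose to 0.402 with the depth covariate.

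In the large subunit, Rpl22 fell the most. It ran at 327, 357 and 408 CPM at E19 and 48.7, 70 and 93.7 CPM at P4 (log2 fold change -2.31, SE 0.14, adjusted p = 2.52e-09), and at 58.3, 79.4 and 84.6 CPM at P7. The X-linked Rpl39, at the peptide exit tunnel, went from 69.3, 86.8 and 112 CPM to 19.3, 25.8 and 36.9 CPM (log2 fold change -1.79, SE 0.162, adjusted p = 1.59e-07). The other X-linked members fell by 1.20 (Rpl10), 1.20 (Rps4x) and 1.35 (Rpl36a) on the log2 scale, each with no overlap between stages. Falls were also called for Rpl8 (-1.27), Rps27a (-0.87), which encodes ubiquitin fused to a small-subunit protein, Rpl41 (-0.75), Rpl3 (-0.58) and Rpl4 (-0.51, all log2 fold changes). Rpl41, Rpl3 and Rps6 lost the call with the depth covariate, and Rps27a kept it (log2 fold change -0.66, adjusted p = 0.0375 by edgeR). Values of Rpl8, Rpl4 and the X-linked members with that covariate are not given here. Members that passed the test in neither direction included Rpl24, Rpl22l1, Rpl34, Rps19, Rpl13 and Rpl29.

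Rpl13 and Rps3 show how far the depth covariate reaches. Rpl13, a large-subunit protein, stood at 104, 127 and 149 CPM at E19 and 106, 128 and 150 CPM at P4, with a log2 fold change of -0.01 (SE 0.105, adjusted p = 0.958), and Rps3 went from 504, 606 and 713 CPM to 220, 421 and 626 CPM (log2 fold change -0.56, SE 0.173, adjusted p = 0.0104). With the library total in the fit, both turned to higher at P4, at 0.47 (adjusted p = 0.0224) for Rpl13 and 0.44 (adjusted p = 0.0135) for Rps3. The direction of these 2 genes between the stages was thus not settled.

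The 2 members that rose from E19 to P4 were both relatives of another member. Rps27l, a p53-responsive relative of Rps27, stood at 32.4, 49.5 and 67.2 CPM at E19 and 116, 140 and 217 CPM at P4 (log2 fold change 1.59, SE 0.163, adjusted p = 6.34e-07), while Rps27 went from 42.3, 52.1 and 79.7 to 29.4, 34.1 and 67.7 CPM (log2 fold change -0.56, SE 0.206, adjusted p = 0.0271). Rps27l thus went from 48.4% and 44.2% of the pair's expression in females and males at E19 to 79.1% and 79.7% at P4, and was at 72.9% and 71.4% at P7. The rise of Rps27l held under all 21 alternatives. Rps27 had an adjusted p of 0.565 and a log2 fold change of 0.24 with the depth covariate, and its call was also lost without the filter on low counts (adjusted p = 0.0632) and without any 1 of 5 libraries, WT E19 female replicate 3, WT E19 male replicate 4, WT P4 female replicate 1 and WT P4 male replicates 1 and 2 (adjusted p between 0.0501 and 0.0661).

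Rpl7l1, a relative of Rpl7 that is known for its part in making the large subunit, rose from 109, 120 and 132 CPM to 209, 251 and 269 CPM (log2 fold change 1.03, SE 0.0765, adjusted p = 2.16e-08). Rpl7 itself fell from 391, 427 and 496 to 177, 244 and 303 CPM (log2 fold change -0.84, SE 0.117, adjusted p = 1.56e-05, or -0.22 and 0.168 with the depth covariate), and the share of Rpl7l1 in the pair went from 22.1% and 21.2% in females and males to 46.2% and 54.1%. Rpl22l1 was not called, at 32.5, 51.4 and 56.3 CPM at E19 and 46.2, 50.4 and 70.2 CPM at P4 (log2 fold change 0.12, SE 0.14, adjusted p = 0.462). Since Rpl22 fell, the share of Rpl22l1 in its pair went from 11.6% and 12.1% to 42.7% and 42.1%. In all 3 pairs the share of the relative was higher at P4 than at E19; these shares were not tested.

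**Figure D2:**
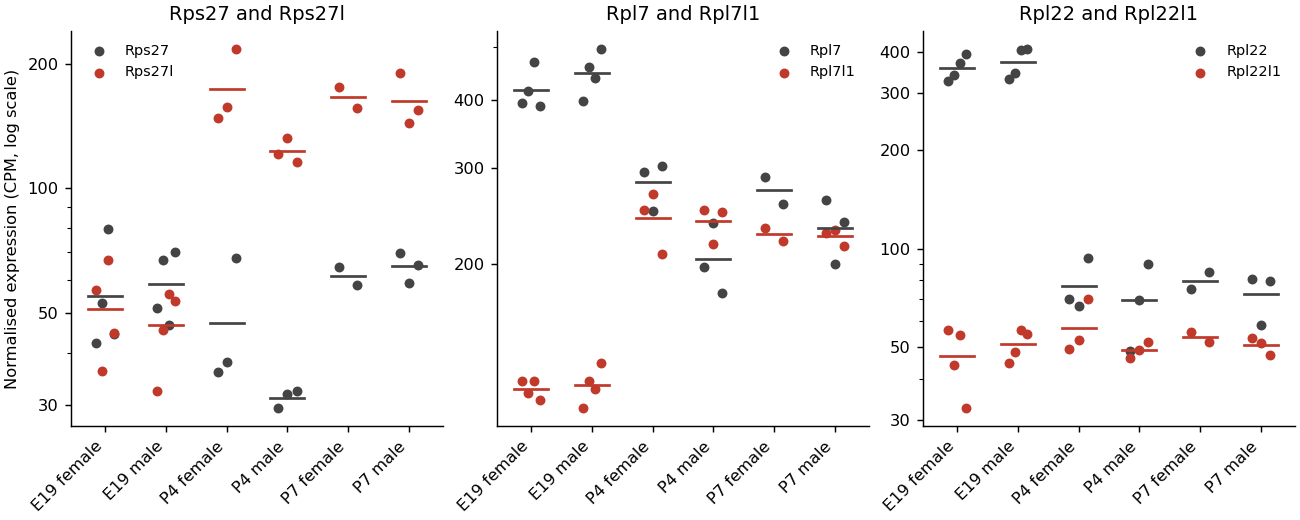
Normalised expression (CPM, log scale) of 3 pairs of related ribosomal protein genes in WT L2/3 neurons by stage and sex; each point is 1 library and each bar a group mean. Rps27l and Rpl7l1 were higher at P4 and P7 than at E19, Rpl22l1 overlapped between the stages, and Rpl7 and Rpl22 were lower.

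Other genes of the translation machinery were counted from lists. Of 6 ribosome-associated genes, which the naming rule leaves out, 4 were lower at P4: Rack1, a scaffold on the small subunit, by 1.61 on the log2 scale, the stalk proteins Rplp2 and Rplp1 by 1.50 and 1.38, and Fau, a fusion that yields a small-subunit protein, by 0.86. Rpl36al, a relative of the large-subunit gene Rpl36a, was among those that rose. Of 39 elongation and initiation factors 19 were lower and 10 higher (median log2 fold change -0.15), with Eef2, which moves the ribosome along the mRNA, at medians of 2300 and 414 CPM. Of 18 genes of the mTOR pathway and its control of these mRNAs 13 were lower and 4 higher (median -1.69); Mtor went from 89.7 to 28.2 CPM and Larp1, which binds the pyrimidine starts, from 146 to 49.7 CPM. Of 49 ribosome biogenesis genes 22 were higher and 18 lower (median -0.05). The mitochondrial ribosomal proteins, which serve another ribosome, went the other way, with 64 of 77 higher and 3 lower (median 0.97).

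From P4 to P7, 12 of 78 ribosomal protein genes tested were higher and none lower, with 3.19% of all 22385 genes higher; 31 were higher at an unadjusted p under 0.05 (11.6% of all genes), and DESeq2 called 26 higher (8.59% of all genes). The median log2 fold change was 0.18 over the members and 0.02 over all genes. Rps29, a short small-subunit protein, stood at 14, 18.6 and 36.6 CPM at P4 and 43, 49 and 63.1 CPM at P7 (log2 fold change 1.37, SE 0.25, adjusted p = 0.0142), and Rps28 at 12.1, 13.4 and 31.7 against 35.7, 37.1 and 46.7 CPM (log2 fold change 1.32, SE 0.264, adjusted p = 0.0192). Both were separate between the stages. Rpl38, known for its part in patterning the skeleton, went from 15.5, 22.4 and 42.9 to 43.8, 50.1 and 57.9 CPM (log2 fold change 1.15, SE 0.241, adjusted p = 0.0235), and Rpl13 from 106, 128 and 150 to 151, 182 and 199 CPM (log2 fold change 0.48, SE 0.0847, adjusted p = 0.0126). The other members called were Rps21 (1.05), Rpl37 (0.91), Rpl36 (0.88), Rpl37a (0.83), Rpl41 (0.78), Rpl39 (0.76), Rps27 (0.75) and Rps2 (0.47, all log2 fold changes). Rps12, Rpsa and Rpl22 did not pass the test, with log2 fold changes of 0.64, 0.04 and 0.06.

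With the library total as a covariate no member was called and the median was 0.03, in a fit where 2.68% of all genes were higher. The log2 fold changes of single members were then 1.13 for Rps29 (adjusted p = 0.099), 0.95 for Rps28 (0.149), 0.81 for Rpl38 (0.197) and 0.39 for Rpl13 (0.085). The count also rested on single libraries, with 23 members called without WT P4 female replicate 3 (3.16% of all genes higher), 7 without WT P7 female replicate 1 (1.4%) and 5 without WT P7 male replicate 2 (1.46%). Rpl38 lost its edgeR call without WT P4 male replicate 2 (adjusted p = 0.0532) or WT P7 male replicate 2 (0.0606). It also lost the call without WT P7 female replicate 1 (log2 fold change 1.23). Rps28 lost its call without WT P7 male replicate 2 (adjusted p = 0.0523). Other lists moved in the same interval: 40 of 61 nuclear-encoded oxidative phosphorylation subunits were higher, and 9 of 10 microglia genes were, summing to medians of 87.8 CPM at P4 and 468 CPM at P7, while 7 of 12 cell cycle genes were lower (median log2 fold change -0.82).

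The members that rose were mostly short. Across the 78 genes the Spearman correlation of the log2 fold change from P4 to P7 with coding length was -0.52, and in the Cux1 KO comparison at P4 it was -0.51 across 77 genes; the comparisons share the WT P4 male libraries, and genes are not independent. It was -0.43 in Cux2 KO males and 0.30 in Cux2 KO females at P4, and 0.23 from E19 to P4, where the shortest members had a median of -1.32 and the longest -0.76, and between -0.16 and 0.10 in the comparisons of 2 groups at E19. For WT females over males it was -0.30 at P4 and 0.22 at P7. Of the 26 shortest members (75 to 399 coding bases) 10 were called from P4 to P7, with a median log2 fold change of 0.55, against 2 of the 26 longest (576 to 1257 bases), with a median of 0.07. A short mRNA has fewer positions at which a read can start; its part in the pattern was not tested.

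**Figure D3:**
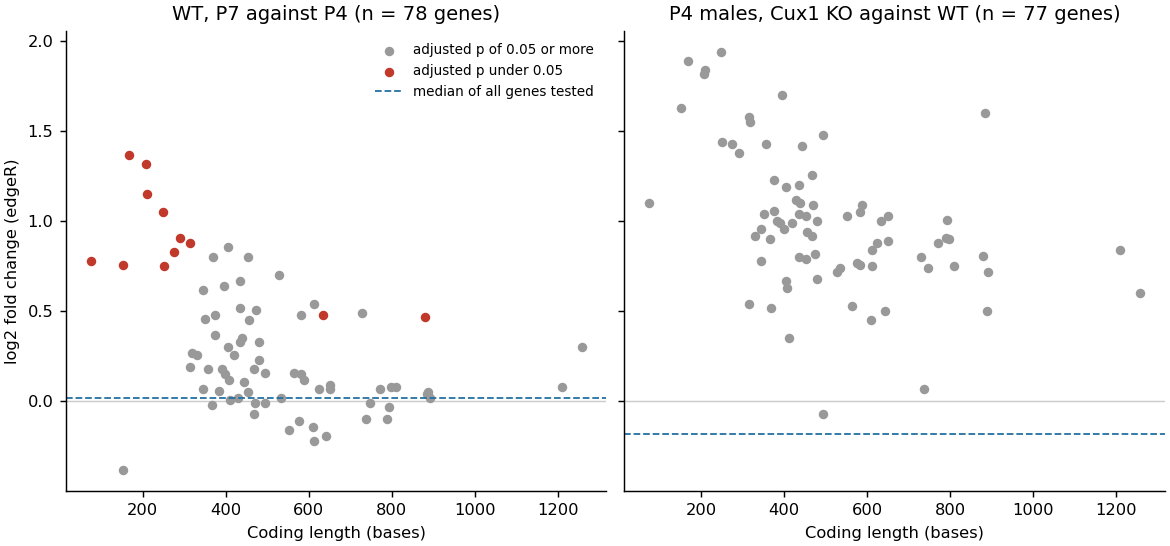
Log2 fold change (y axis, edgeR) of each ribosomal protein gene against its coding length (x axis, bases), for WT P7 against P4 (78 genes, left) and Cux1 KO against WT in P4 males (77 genes, right); red marks an adjusted p under 0.05 and the dashed line is the median of all genes tested. In both panels the largest values lay among the shortest genes.

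Females and males of the WT were compared at each stage. At E19, none of the 77 ribosomal protein genes passed the test in edgeR or DESeq2 and none had an unadjusted p under 0.05 in edgeR, where 0.0461% of all genes were called and 3.67% had an unadjusted p under 0.05. The medians were -0.10 (females over males) for the members and 0 for all genes, and 71 of 77 members were below 0, while 49.9% of all genes were above 0. Over 17 alternatives the median of the members ran from -0.18 to 0.02. The smallest p was that of Rps6, at 178, 187, 204 and 160 CPM in females and 177, 196, 207 and 242 CPM in males (log2 fold change -0.19, SE 0.11, adjusted p = 0.992, or a log2 fold change of -0.1 with the depth covariate). The groups overlapped for every member, and over all genes 1.59% were separate and higher in females and 0.853% separate and lower.

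At P4 the ribosomal protein genes leaned toward females without passing the test. Summed expression was 9280 CPM on average in females and 6660 CPM in males, 75 of 77 log2 fold changes were above 0, which was so for 48.8% of all genes, and the median was 0.35 against -0.01 over all genes. None was called by edgeR (0% of all genes) or DESeq2 (0.648% of all genes higher and 0.863% lower). At an unadjusted p under 0.05, 22 were higher in females (3.5% of all genes), and for 29 the female libraries lay above all male ones (8.24% of all genes). The smallest adjusted p over all genes was 0.0602 in edgeR. The sex-linked genes that the study reports as different at each stage thus did not pass either. With only the 2 groups in the fit, edgeR also called no gene between KO and WT at P4. Its lack of calls within P4 does not show that members were unchanged. Rps3a1, which had the smallest p, stood at 132, 142 and 149 CPM in females and 94.8, 112 and 106 CPM in males (log2 fold change 0.44, SE 0.129, adjusted p = 0.675). The male libraries were the deeper ones, with 50429979, 35891853 and 60559585 counts against 26654499, 37079440 and 20919432 in females, and with the library total as a covariate the median was 0.11. Marker lists differed between the same libraries: endothelial markers summed to 61.2, 84.3 and 61.9 CPM in females and 178, 130 and 251 CPM in males, mural cell markers to 145, 190 and 197 against 475, 293 and 368 CPM, and oligodendrocyte lineage markers to 1810, 1960 and 738 against 3380, 2450 and 2610 CPM. Higher in females were interneuron markers, at 529, 558 and 1030 against 321, 485 and 353 CPM, and intermediate progenitor markers, at 514, 495 and 608 against 407, 364 and 248 CPM. The mitochondrially encoded genes had a median log2 fold change of 1.37, and their summed counts did not follow depth at P4 (slope -0.34). Their part in the result was not tested. At P7 no member was called by either tool or at an unadjusted p under 0.05 (0.0247% and 4.36% of all genes in edgeR), with a median of 0.10, or 0.00 with the depth covariate. At P7 64 of 77 members were above 0 (48.3% of all genes), 12 were separate and higher in females (8.48% of all genes), and 2 were separate and lower (9.98% of all genes).

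The 4 X-linked members, Rpl10, Rpl36a, Rpl39 and Rps4x, had log2 fold changes of females over males between -0.18 and -0.10 at E19, between 0.04 and 0.47 at P4 and between -0.07 and 0.16 at P7, and none was called. Rps4x was at 303, 312, 345 and 314 CPM in WT females and 281, 342, 344 and 391 CPM in WT males at E19, which overlapped. These values were within the range of the other members at each stage.

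In Cux1 KO neurons at E19 the ribosomal protein genes did not pass the test. In females none was called by edgeR or DESeq2 or had an unadjusted p under 0.05 (0.0576% and 6.87% of all genes in edgeR), with medians of 0.03 for the members and 0.01 for all genes. Rpl13a, which is known as part of a complex that silences inflammatory mRNAs, had the smallest p, at 59.4, 77.9, 59.4 and 61.2 CPM in Cux1 KO and 59, 48, 64.1 and 37.2 CPM in WT (log2 fold change 0.31, SE 0.16, adjusted p = 0.735). In males none was called by either tool and none had an unadjusted p under 0.05 (0.0979% and 10.4% of all genes in edgeR), with a median of -0.13 and 70 of 77 members below 0. Of all genes, 47.4% were above 0 in this comparison. Over 17 alternatives the median of the members ran from -0.2 to 0.02. Rps20, which had the smallest p in males, was at 193, 226, 226 and 224 CPM in Cux1 KO and 212, 259, 234 and 273 CPM in WT (log2 fold change -0.20, SE 0.0944, adjusted p = 0.491). The KO effect was not shown to differ between the sexes for any member (0% of all genes called), and Rps2 had the smallest p, with an interaction of -0.25 (SE 0.122, adjusted p = 0.962). The median interaction was -0.15, or 0.02 with the depth covariate.

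In Cux1 KO males at P4 nearly all ribosomal protein genes had higher values than in WT, and whether they passed the test depended on the tool and on the libraries in the fit. Summed expression was 14900 and 9830 CPM in the 2 Cux1 KO libraries and 6280, 7600 and 6090 CPM in the 3 WT libraries. The median log2 fold change was 0.96 over 77 members and -0.18 over all genes, with 76 members above 0 (42.9% of all genes). In edgeR none passed an adjusted p under 0.05 (0% of all genes), the smallest adjusted p being 0.0764, while 62 had an unadjusted p under 0.05 and were higher, against 8.19% of all genes. DESeq2 called 58 higher and none lower (7.22% of all genes higher), and edgeR called 60 higher when all P4 groups shared the fit (6% of all 23658 genes tested there higher). For 63 members both Cux1 KO libraries lay above all WT libraries (18.6% of all genes).

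Rps21, a short protein of the small subunit, had the largest difference, at 87.9 and 82.9 CPM in Cux1 KO and 18.4, 21.6 and 26.3 CPM in WT (log2 fold change 1.94, SE 0.237, adjusted p = 0.0764 by edgeR and 1.21e-10 by DESeq2). Rps29 followed at 67.1 and 61.7 CPM against 14, 15.5 and 22.3 CPM (log2 fold change 1.89), and Rpl38 at 72.8 and 62.8 CPM against 15.5, 16.4 and 24.5 CPM (log2 fold change 1.84). Neither gene overlapped between the groups. Rpsa was at 204 and 216 CPM against 56.5, 68.6 and 80.8 CPM (log2 fold change 1.60), and Rpl13 at 264 and 195 CPM against 111, 123 and 106 CPM (log2 fold change 1.00, SE 0.19, adjusted p = 0.0838). Rps12 was at 10.7 and 7.35 CPM against 1.98, 2.33 and 3.93 CPM (log2 fold change 1.70, adjusted p = 0.226). At the other end, Rpl7l1 and Rps10 had log2 fold changes of 0.07 and -0.07 and overlapped between the groups. Rps3 had a log2 fold change of 0.80 (adjusted p = 0.346), which was -0.10 with the depth covariate.

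With the library total as a covariate the median was 0.73 and none was called, and with all P4 groups in the fit as well 48 were higher and 1 lower (5.49% and 7.77% of all genes). Without Cux1 KO replicate 2 edgeR called 3 members higher (0.241% of all genes higher), in a fit where the 1 remaining Cux1 KO library was assumed to vary like the WT libraries. The 2 Cux1 KO libraries differed from the WT males in other ways too. They had the fewest genes detected of all 43 libraries, at 17049 and 19115. Their upper-layer neuron markers summed to 764 and 975 CPM against 413, 447 and 588 CPM, their microglia markers to 22.5 and 22.3 CPM against 68, 68.2 and 110 CPM, their oligodendrocyte lineage markers to 1400 and 1280 CPM against 3380, 2450 and 2610 CPM, and their mural cell markers to 32.4 and 90.2 CPM against 475, 293 and 368 CPM. The ependymal marker Foxj1 was at 0 in both. The part of these differences in the ribosomal protein values was not tested, and the Cre plasmid, which only this group carried, cannot be told apart from the loss of Cux1. By DESeq2 37 of 61 oxidative phosphorylation subunits, 5 of 6 ribosome-associated genes and 12 of 39 elongation and initiation factors were higher as well, and by edgeR none was.

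In Cux2 KO neurons Rpl29 was the member called by edgeR, in E19 males. At E19 in females no member was called by edgeR (0.0287% of all genes) or DESeq2, with 1 lower at an unadjusted p under 0.05 (1.66% of all genes), and the median was 0.07. In males Rpl29 alone was lower in both edgeR and DESeq2 (0.0577% of all genes lower in edgeR) and 2 were lower at an unadjusted p under 0.05 (3.14% of all genes), with a median of -0.07 and 70 of 77 members below 0. Of all genes, 47.4% were above 0 in these males. Over 17 alternatives the median of the members ran from -0.13 to 0.02. The leans below 0 at E19, in WT females over males and in males of each KO, share the same 4 WT male libraries. They are thus not independent. At P4, none was called by edgeR in females (0% of all genes), 9 were lower at an unadjusted p under 0.05 (2.83% of all genes) and the median was -0.28, or -0.14 with the depth covariate. In these females 73 of 77 members were below 0, while 51.8% of all genes were above 0. For 19 members the groups were separate and lower (7.53% of all genes), and mural cell markers summed to 396, 425 and 423 CPM in Cux2 KO against 145, 190 and 197 CPM in WT. At an unadjusted p under 0.05, 6 of 12 cell cycle genes were lower (2.83% of all genes) and 4 of 8 endothelial genes higher (4.56% of all genes), none of them called by edgeR, and the mitochondrially encoded genes had a median log2 fold change of -0.61. The part of these differences was not tested. In P4 males none was called by edgeR (0% of all genes), 9 were higher at an unadjusted p under 0.05 (2.79% of all genes) and the median was 0.14, or -0.01 with the depth covariate. In these males 57 of 77 members were above 0 (49.6% of all genes), 9 were separate and higher (6.8% of all genes), 1 was separate and lower (5.73% of all genes), and values reached 0.77. Ependymal markers summed to 231, 130 and 202 CPM in these Cux2 KO males against 37.7, 82.6 and 74.9 CPM in WT, and the mitochondrially encoded genes had a median log2 fold change of 1.10 with none called. The part of these differences was not tested.

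Beside Rpl29, the members with the smallest p at P4 were Rpl5 in females and Rpl36 in males. Rpl5, which carries the 5S RNA into the large subunit, was at 109, 115 and 115 CPM in Cux2 KO and 139, 143 and 172 CPM in WT females (log2 fold change -0.42, SE 0.12, adjusted p = 0.593). Rpl36 was at 31, 27.1 and 30.9 CPM in Cux2 KO and 19.4, 19.3 and 18.8 CPM in WT males (log2 fold change 0.62, SE 0.168, adjusted p = 0.494 by edgeR and 0.00506 by DESeq2). Rpl5 and Rpl36 were each separate between the groups. Rpl36 was the 1 member of 77 that DESeq2 called in P4 males, where it called 1.33% of all genes higher. For no member was an interaction of Cux2 KO with sex called by edgeR or DESeq2 at E19 or P4. Over all genes edgeR called 0% at either stage, and DESeq2 called 0% at E19 and 0.538% higher and 0.6% lower at P4. At E19 1 member was below 0 at an unadjusted p under 0.05 (1.6% of all genes), and at P4 19 were above 0 (3.44% of all genes), with a median of 0.41 for males minus females, or 0.17 with the depth covariate. Rpl39 had the smallest p at P4 (KO effect in males minus females 0.87, SE 0.298, adjusted p = 0.649).

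**Figure D4:**
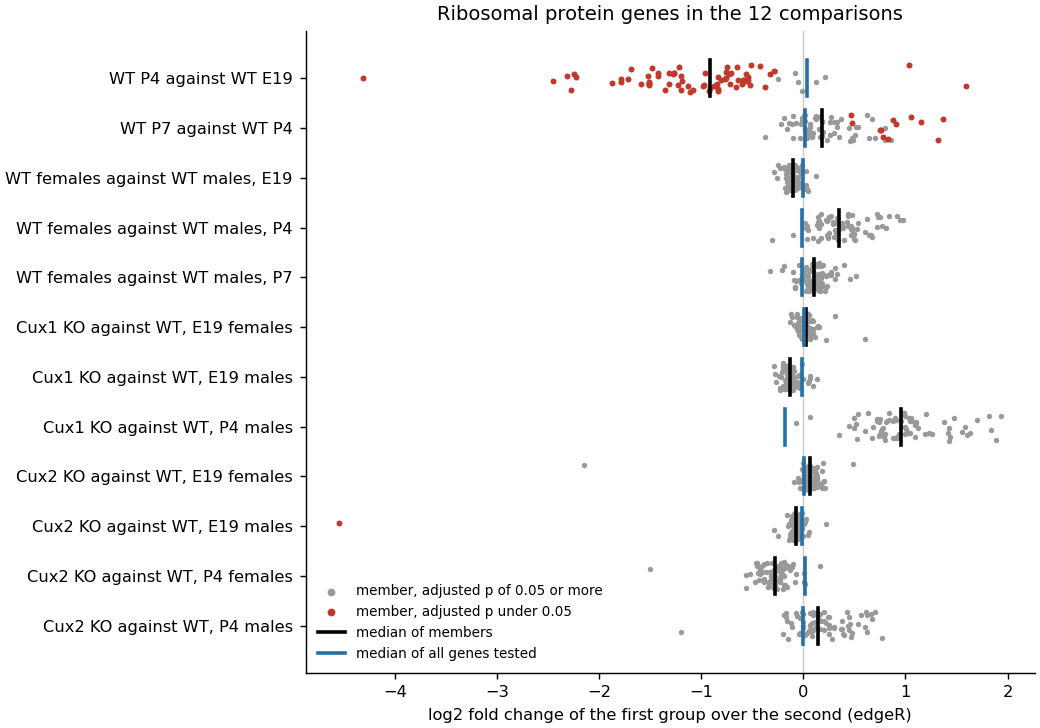
Log2 fold changes (x axis, edgeR) of the ribosomal protein genes in the 12 comparisons of 2 groups or stages; each point is 1 gene, red where its adjusted p was under 0.05, with the median of the members in black and of all genes tested in blue. The members moved together from E19 to P4 and in Cux1 KO males at P4, and Rpl29 lay apart in the Cux2 KO comparisons.

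Rpl29 encodes a large-subunit protein at the surface of the ribosome and lies on chromosome 9 at chr9:106306586-106311297 (GRCm39). At E19 it was at 2.57, 2.95, 0.851 and 1.02 CPM in the Cux2 KO males (42, 45, 12 and 15 counts) and at 49.2, 32.2, 31.1 and 61.4 CPM in the WT males (843, 410, 501 and 858 counts), with a log2 fold change of -4.55 (SE 0.363, adjusted p = 7.4e-05 by edgeR and 4.49e-18 by DESeq2), a call that held under all 17 alternatives. The Cux2 KO females of E19 had 25, 2.49, 1.92 and 3.09 CPM and the WT females 29.5, 54, 57.7 and 2.04 CPM, so that 1 KO library lay near the WT values and 1 WT library among the KO values (log2 fold change -2.15, SE 0.863, adjusted p = 0.977). Without that KO library, replicate 1, the log2 fold change was -3.85 (adjusted p = 0.536), and without the WT library, replicate 4, it was -2.55 (adjusted p = 0.388). The KO effect was not shown to differ between the sexes (interaction -2.40, SE 1.13, adjusted p = 0.979).

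At P4 the Cux2 KO values lay below all WT values in both sexes without passing the test. They were 3.06, 19.8 and 19.2 CPM against 40, 38.2 and 40.1 CPM in females (log2 fold change -1.50, SE 0.62, adjusted p = 0.668), and 1.57, 19.7 and 24.8 CPM against 32.8, 38.3 and 34.2 CPM in males (log2 fold change -1.20, SE 0.838, adjusted p = 0.999). In each sex 1 KO library was far lower than the other two. Over the 43 libraries, 10 lay between 0.851 and 3.09 CPM, 9 of them Cux2 KO and 1 WT, and the other 33 between 19.2 and 75 CPM, 5 of them Cux2 KO. No library fell between 3.09 and 19.2 CPM.

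The named pseudogene Rpl29-ps5 was at 3.03 to 6.84 CPM (median 4.01) in those 10 libraries and at 0.796 to 3.77 CPM (median 1.51) in the other 33. The order of the pseudogene was thus on balance opposite to that of the gene, with ranges that overlapped. The 8 low libraries of E19 and the 2 of P4 came from both sequencing rounds. With the counts of the named pseudogenes added to those of Rpl29, the log2 fold change of Cux2 KO over WT was -1.54 in E19 females (adjusted p = 0.977 by edgeR). In E19 males it ran from -4.85 to -2.89 over the 17 alternatives, this one among them. Whether reads of the gene were placed on the pseudogene in these libraries was not tested, and a sequence difference at the gene cannot be told apart from a lower level in counts of aligned reads.

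**Figure D5:**
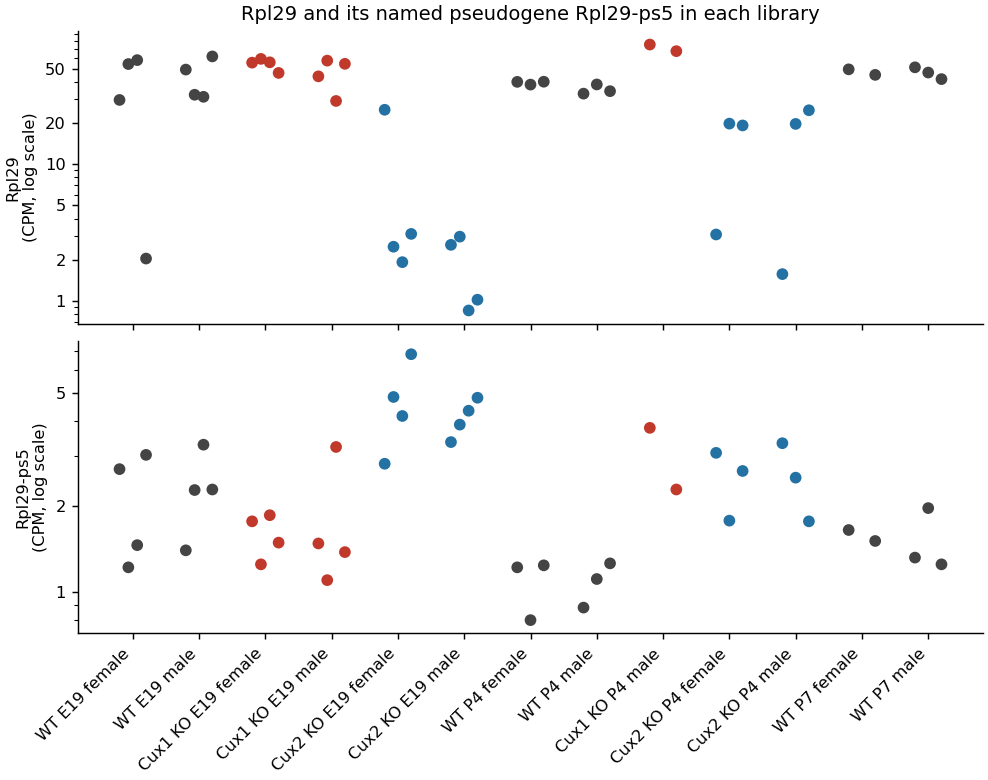
Normalised expression (CPM, log scale) of Rpl29 (top) and of its named pseudogene Rpl29-ps5 (bottom) in each of the 43 libraries by group; each point is 1 library, black for WT, red for Cux1 KO and blue for Cux2 KO. In the top panel 10 libraries lay at or under 3.09 CPM and 33 at or above 19.2 CPM, and 9 of the 10 were Cux2 KO.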

How the data were processed

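RNA-seq libraries of sorted GFP+ cells (43: 24 at E19, 14 at P4 and 5 at P7) were analysed from 1 deposited table of raw counts per gene. Per the labels and the study's methods, the authors aligned single-end reads with HISAT2 to GRCm39, masking the Y chromosome in females, removed reads at positions shared by many reads, and counted primary alignments per gene with featureCounts on Ensembl annotation. Whether counting used strand is not given in the sources used here, so overlapping and antisense genes cannot be separated. Library totals ran from 13321095 to 60559585 counts.

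The members and lists were chosen with earlier results of these data known. The named genes were Rpl13, Rps3, the X-linked members, the paralog pairs, Rpsa, Rps27a, Rpl41 and Rps6, up to 3 members per direction with the largest called change and separate groups in each comparison (the member of smallest p where none was called), and those of highest and lowest level; other members were named after their values were seen. CPM were computed with TMM factors in edgeR 4.0.16 (R 4.3.3). The test was edgeR's quasi-likelihood test after filterByExpr, fitted to the libraries of the groups compared and adjusted by Benjamini-Hochberg over all genes tested, with a threshold of 0.05. Stage comparisons had sex as a covariate. It was tested on simulated counts. Alternatives were DESeq2 1.42.0 without shrinkage, its size factors, TMM without the ribosomal protein genes, no filter, a replicate block, log2 library total as a covariate, adding named pseudogenes, all groups of a stage in 1 fit, with and without depth (the latter chosen after seeing the data), and leaving out each library. Coding lengths came from GENCODE M39 (CCDS transcripts). Nothing in the labels says which libraries came from separate animals, so p-values measure the spread between these libraries. The table holds 0 columns of other samples. Results of some named genes are not reported here.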

Additional observations from a re-analysis of the deposited data

Results flagged for a closer look

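For 30 named genes and the summed level of the 80 genes, 186 sets of 4 libraries were checked for a library whose gap to its nearest neighbour took up most of the range of its group; chance gives such a gap in about 1 in 20 groups, and 8 were found. The highest library of its group was far from the others for Rpl13a in Cux1 KO E19 female replicate 2 (77.9 CPM), Rpl7 in the same library (472 CPM), Rpl3 in WT E19 female replicate 3 (314 CPM), Rpl39 in the same library (112 CPM), Rpl36a in WT E19 male replicate 4 (99 CPM) and Rpl29 in Cux2 KO E19 female replicate 1 (25 CPM). The lowest library was far from the others for Rpl39 and for Rps20 in Cux1 KO E19 male replicate 1 (70.2 and 193 CPM). No named gene separated fully in opposite directions when the same contrast of sexes, or of a KO with WT, was set against itself in the other sex or at another stage.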

How the results depend on the processing

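Of 288 alternatives of the counts of called ribosomal protein genes and of their summed levels, 264 left the count within 1.5 times or the level within 1 SD, and the rest are given here. In Cux1 KO males at P4 the count of 0 became 60 with all groups in 1 fit, 49 with the library total added to it, 58 by DESeq2 and 0 to 3 when a library was left out. In Cux2 KO males at P4 it became 1 by DESeq2 (1.33% of all genes higher). From E19 to P4 the count of 70 became 46 with the library total as a covariate and 65 to 71 with a library left out. From P4 to P7 the count of 12 became 0 with the library total as a covariate, 26 by DESeq2 and 5 to 23 with a library left out. By construction, adding the named pseudogenes raised the summed level, to 22700, 21700, 23400, 22400, 22200 and 23300 CPM at E19 (females and males of Cux1 KO, of Cux2 KO and of WT), to 14300 and 10800 (WT), 11700 and 12400 (Cux2 KO) and 21400 CPM (Cux1 KO males) at P4, and to 15700 and 14200 CPM (WT) at P7.

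Directions that turned were mostly those of differences near 0, and the cause was not tested. For females over males at E19, Rpl10 became 0.02 and Rpl39 0.08 with the library total as a covariate (Rpl39 0.00 with all groups in 1 fit as well). At P4 Rpl10 became -0.03 with all groups and depth and -0.02 to 0.10 with a library left out. At P7 Rpl10 became -0.10 with depth in either fit and -0.06 to 0.15 with a library left out, Rpl36a became 0.00 with pseudogenes and -0.17 to 0.03 with a library left out, and Rpl39 became -0.02 to 0.14 with a library left out. From E19 to P4 with depth, Rpl13 became 0.47, Rps3 0.44 and Rps27 0.24; Rpl13 was also 0.00 with TMM without the members and by DESeq2, 0.09 without a filter, 0.18 with pseudogenes and -0.06 to 0.04 with a library left out. Rps3 became -0.10 in Cux1 KO at P4 and -0.05 from P4 to P7 with depth.

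The replicate numbers were taken only as names of the libraries. Same-numbered libraries of 2 groups deviated with a mean correlation between -0.121 and 0.337, and in no comparison with 3 or more pairs was every correlation over 0.1. Between WT females and males at P7, with 2 pairs, the correlations were 0.293 and 0.381. There edgeR called 0.0247% of all genes without the numbers in the fit and 0% with them. The fit with the numbers as a replicate block changed no count of called members by over 1.5 times. It turned Rpl39 to -0.02 (females over males, P7) and Rpl13 to 0.03 (P4 over E19). Removal of duplicate reads limits the depth of these genes, and no setting here restores the reads removed.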
